A study of Mus musculus with 12 samples.

Results

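The genes described here are 10 mouse genes of prostaglandin and lipoxygenase metabolism, taken by their symbol from an expression table of 48034 genes: Pla2g4a, Ptgs1, Ptgs2, Ptges, Ptges2, Hpgd, Ptger4, Alox12, Alox12e and Alox15. Their RNA was measured in IMCD3 cells, a line from the mouse inner medullary collecting duct, the last segment of the kidney tubule, where urine is concentrated. All libraries came from subclone 53a, in which mifepristone induces a dominant-negative form of a kidney epithelial transcription factor, a point taken from knowledge of the study. The 4 groups of 3 libraries each were vehicle, vehicle with 100 mM added NaCl, mifepristone, and mifepristone with 100 mM added NaCl, all in low-glucose medium with serum. The subclone is 1 clone, and every library given mifepristone also carries the mutant, so the hormone antagonist and the mutant cannot be told apart. Nothing in the labels says that the 3 libraries of a group are separate cultures, so p-values measure only library-to-library spread, and that spread may be technical.

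Prostaglandins are made from arachidonic acid, which phospholipase A2 frees from membranes, cyclooxygenase turns into prostaglandin H2, and terminal synthases turn into prostaglandin E2 and its relatives. Lipoxygenases add oxygen to the same fatty acid by another route and give hydroxy acids. In the collecting duct, prostaglandin E2 is known to oppose water and salt reabsorption through its receptors, and medullary cyclooxygenase is known to respond to high tonicity.

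Library totals, recovered from the deposited values as whole reads, ran from 41940955 to 49270776. All 9 listed markers of tubule epithelium were expressed, whereas 2 of 11 principal cell markers and 1 of 7 intercalated cell markers reached 1 fragment per kilobase and 1e+06 fragments (FPKM) in at least 3 libraries. Aqp2, the water channel that defines principal cells, had 0, 2, 0 and 11 reads summed over the 3 libraries of the vehicle, vehicle with NaCl, mifepristone, and mifepristone with NaCl groups. The list of tubule epithelium markers summed to between 911.9 and 1319 FPKM over all libraries, but its genes differed between groups: the kidney cadherin gene Cdh16 averaged 188.0, 676.2, 31.6 and 121.2 FPKM in that order. Principal cell markers summed to 2.58 to 2.72, 1.60 to 1.84, 10.7 to 11.4 and 11.2 to 12.7 FPKM, most of it Hsd11b2 in the mifepristone groups. Of 9 markers of interstitial cells, which are also a source of prostaglandins in the medulla, 2 were expressed (Dcn and Tnc), and the list summed to 1.86 to 2.22, 1.11 to 1.19, 11.0 to 11.7 and 3.79 to 4.16 FPKM. The interstitial genes Pdgfra and Pdgfrb were at or below 0.0308 and 0.0434 FPKM. The part of these markers in the mifepristone results below was not tested. In bulk RNA, fewer cells expressing a gene and less RNA per cell cannot be told apart.

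The bases upstream of the RefSeq start site of 4 members are shown because these genes had the largest differences of those tested: both cyclooxygenase genes, the receptor gene Ptger4, and Alox12e. Each runs 5′ to 3′ on the gene's own strand from GRCm38.p6, and capitals mark letters that match a searched motif.
Ptgs1 (chr2:36230176-36230425, plus strand): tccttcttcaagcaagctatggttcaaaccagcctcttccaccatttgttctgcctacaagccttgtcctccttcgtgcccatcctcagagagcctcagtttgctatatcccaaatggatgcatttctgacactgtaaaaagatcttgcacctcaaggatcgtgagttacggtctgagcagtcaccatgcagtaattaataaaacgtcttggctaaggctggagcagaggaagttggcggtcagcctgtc
Ptgs2 (chr1:150099781-150100030, plus strand): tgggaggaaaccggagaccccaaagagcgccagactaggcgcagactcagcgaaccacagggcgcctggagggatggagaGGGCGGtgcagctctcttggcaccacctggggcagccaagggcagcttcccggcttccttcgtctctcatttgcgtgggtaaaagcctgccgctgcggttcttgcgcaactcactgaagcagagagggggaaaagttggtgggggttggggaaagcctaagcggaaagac
Ptger4 (chr15:5244188-5244437, minus strand): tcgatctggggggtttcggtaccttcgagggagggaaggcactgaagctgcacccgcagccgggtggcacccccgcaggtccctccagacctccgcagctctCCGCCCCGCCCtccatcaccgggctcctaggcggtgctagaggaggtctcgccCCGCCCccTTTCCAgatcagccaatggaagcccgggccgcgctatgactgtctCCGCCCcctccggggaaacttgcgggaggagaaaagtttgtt
Alox12e (chr11:70322629-70322780, minus strand): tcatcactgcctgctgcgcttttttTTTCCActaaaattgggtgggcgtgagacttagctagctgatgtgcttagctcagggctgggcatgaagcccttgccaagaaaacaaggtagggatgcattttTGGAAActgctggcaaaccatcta
The first 3 stretches end at the base before the start site. The Alox12e stretch ends 98 bases before it, where an exon of a longer GENCODE model begins.

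Motifs were searched on both strands of the 250 bases before the start site of 32851 RefSeq entries, of which 9 of the 10 members have one (Alox15 has none). Positions are of a match's first base, counted back from the start site. The NFAT core TGGAAA was in 18.6% of all windows, and among these members in Alox12e (at -225 and -122 from the start site), Ptger4 (at -87) and Ptges2 (at -70). The GC box GGGCGG was in 32.7% of windows. Ptger4 held it at -148, -143, -95 and -42, the first 2 overlapping by 1 base, and Ptgs2 held it at -170. Alox12, Alox12e, Hpgd and Ptges held it too. The longer TonE motif, which contains the NFAT core and is bound by the tonicity factor NFAT5, was in 4.3% of windows and in no member's window. No member's window held the NF-kB motif (7.3% of windows) or the cyclic AMP response half-site TGACG (17.8%). The TATA box TATAAA (12.4%) matched in Pla2g4a only at -200 and on the strand opposite to the gene. The Pla2g4a window starts at base 149922390, inside the gene span given below. The E-box CACGTG (6.0%) matched in Ptges2 at -77. The Ptgs1 window held none of these motifs.

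Of the 10 members, 6 reached 1 FPKM in at least 3 libraries and were tested (Pla2g4a, Ptgs1, Ptgs2, Ptges2, Ptger4 and Alox12e). Alox12e passed that filter only through the NaCl libraries, and it is among the members counted as higher with NaCl below. Each test was made with limma on log2(FPKM + 0.5) across 14044 genes, with Benjamini-Hochberg adjustment over all of them and calls at an adjusted p under 0.05. A log2 difference on this scale understates the change of genes near 0. For mifepristone against vehicle without NaCl, 1 tested member was higher and 2 were lower, beside 28.3% higher and 31.5% lower among all genes tested. With NaCl present, 4 were higher and 1 was lower, beside 26.8% and 31.9%. For NaCl against none, 3 were higher and 3 lower in vehicle cells (all genes 25.2% and 31.5%), and 3 were higher and 1 lower in mifepristone cells (24.5% and 34.2%). The mifepristone comparisons share libraries with the NaCl comparisons, so these counts are not independent of each other. Median log2 differences over the tested members were 0.06, 0.42, 0.26 and 0.89 in that order, and medians over all genes were -0.01, -0.03, -0.02 and -0.06.

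**Figure D1:**
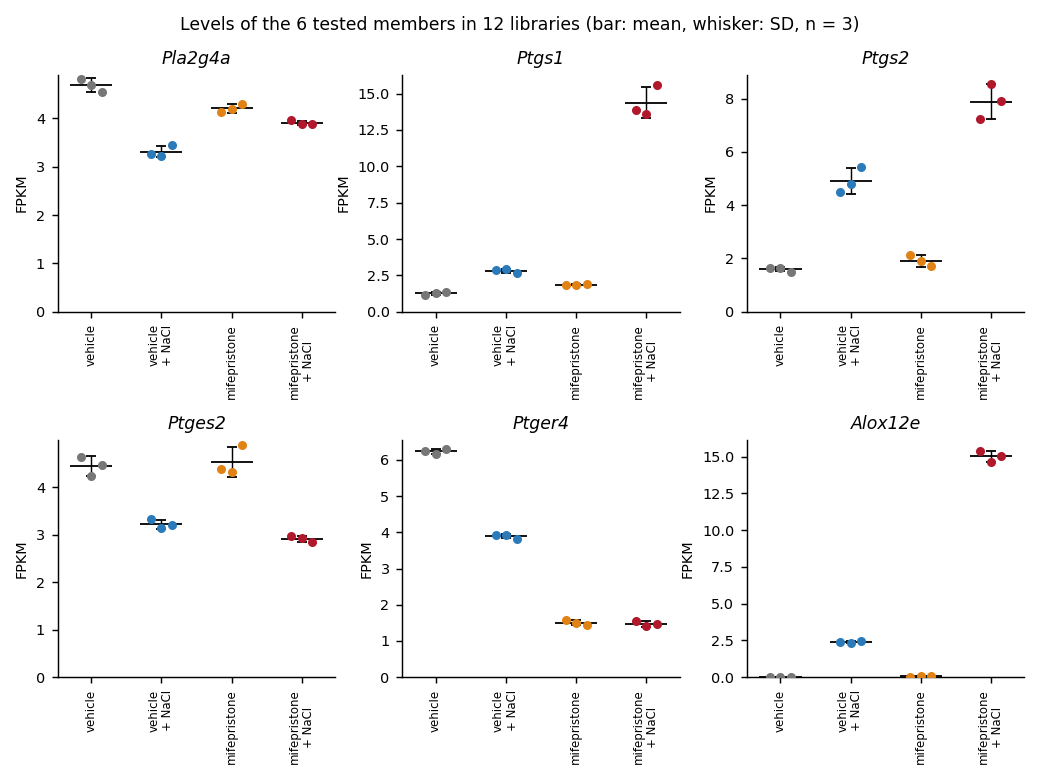
Level of each tested member (FPKM, linear axis from 0) in the 12 libraries, by group; points are libraries, the horizontal bar is the mean and the whisker the SD (n = 3). Ptgs1 and Alox12e reached means of 14.4 and 15.02 FPKM only in the libraries with both treatments, and Ptger4 was near 1.5 FPKM in all 6 mifepristone libraries.

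Pla2g4a encodes cytosolic phospholipase A2 alpha, which releases arachidonic acid from membranes (chromosome 1, 149829618 to 149961290, minus strand, GRCm38). Its levels were 4.82, 4.69 and 4.54 FPKM in vehicle libraries, and 3.26, 3.23 and 3.45 FPKM with NaCl. They were 4.13, 4.19 and 4.30 FPKM in mifepristone libraries, and 3.96, 3.88 and 3.88 FPKM with both treatments. The order of the groups did not overlap at any step: vehicle was highest, then mifepristone, then both treatments, and vehicle with NaCl was lowest. In vehicle cells NaCl lowered the level by 1.42-fold in group means (log2 difference -0.44, SE 0.04, limma adjusted p = 2.57e-06). In mifepristone cells the NaCl difference was -0.09 (95% interval -0.18 to -0.01, adjusted p = 0.0535) and did not pass, though it did with limma-voom on recovered reads (-0.11, adjusted p = 0.0281). Mifepristone lowered Pla2g4a slightly without NaCl (-0.14, adjusted p = 0.00867) and raised it with NaCl (0.21, adjusted p = 0.000644). The difference between these 2 effects, the interaction, was 0.35 (SE 0.05, adjusted p = 0.000727).

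Ptgs1 encodes cyclooxygenase-1, usually described as the constitutive isoform, and lies on chromosome 2 (36230426 to 36252272, plus strand). Vehicle libraries held 1.117, 1.29 and 1.37 FPKM, and vehicle libraries with NaCl held 2.85, 2.95 and 2.68 FPKM. Mifepristone alone gave 1.86, 1.85 and 1.89 FPKM, and mifepristone with NaCl gave 13.9, 13.6 and 15.6 FPKM. No group overlapped another, and the libraries with both treatments stood several-fold above every other library. NaCl raised the group mean 2.25-fold in vehicle cells (log2 difference 0.92, SE 0.06, limma adjusted p = 5.05e-07) and 7.69-fold in mifepristone cells (2.65, adjusted p = 7.46e-11). Mifepristone raised it 1.48-fold without NaCl (0.43, adjusted p = 0.000155) and 5.08-fold with NaCl (2.16, adjusted p = 3.05e-10). The interaction was 1.73 (SE 0.09, 95% interval 1.52 to 1.93, adjusted p = 3.92e-07). The authors' deposited table marks Ptgs1 as 1 of 52 genes with an interaction, with a log2 value of 1.78 and an adjusted p-value of 9.99e-07.

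An antisense gene, Gm43621, lies within Ptgs1, and whether the counting used strand is not given in the sources used here. Of the 50-base words in Ptgs1 transcripts, 2.63% also occur in Gm43621 on the opposite strand. Gm43621 held 5, 8, 6 and 114 reads in the groups in the order above, against 670, 1502, 1032 and 7727 reads of Ptgs1, so it was small beside Ptgs1 in every group.

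Ptgs2 encodes cyclooxygenase-2, the inducible isoform (chromosome 1, 150100031 to 150108227, plus strand). It measured 1.63, 1.65 and 1.4996 FPKM in vehicle libraries, and 4.50, 4.79 and 5.42 FPKM with NaCl. It measured 2.13, 1.90 and 1.70 FPKM with mifepristone, and 7.22, 8.54 and 7.90 FPKM with both. All 6 NaCl libraries were above all 6 without NaCl. NaCl raised the group mean 3.08-fold in vehicle cells (log2 difference 1.37, SE 0.08, limma adjusted p = 1.71e-07) and 4.13-fold in mifepristone cells (1.80, adjusted p = 1.39e-08). Mifepristone raised it 1.61-fold with NaCl (0.63, adjusted p = 5.7e-05), and the interaction was 0.43 (SE 0.12, adjusted p = 0.0173). Without NaCl the mifepristone difference was 0.20 (95% interval 0.02 to 0.38, adjusted p = 0.0591) and did not pass. It passed when mifepristone library C was left out (0.26, adjusted p = 0.0175) or vehicle with NaCl library C was left out (0.20, adjusted p = 0.047). It also passed with a pseudocount of 0.1 (0.24, adjusted p = 0.0445) and with library quality weights (0.25, adjusted p = 0.0481). Leaving out vehicle library A and mifepristone library C together gave 0.28 (adjusted p = 0.0258). No 50-base word of Ptgs2 transcripts occurs in any other gene's transcripts on either strand. The divergent noncoding gene Ptgs2os held 21 to 38 reads per group.

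The balance of the 2 cyclooxygenase mRNAs differed between groups, as the plot of their ratio shows. The FPKM ratio of Ptgs1 to Ptgs2 was 0.792 ± 0.113 (SD, n = 3) in vehicle libraries and 0.581 ± 0.0764 with NaCl. It was 0.986 ± 0.117 with mifepristone and 1.83 ± 0.207 with both treatments. Ptgs2 was thus the higher of the pair in all 6 vehicle libraries, and Ptgs1 in all 3 libraries with both treatments. The vehicle and mifepristone ranges overlapped, and the ratio itself was not tested.

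**Figure D2:**
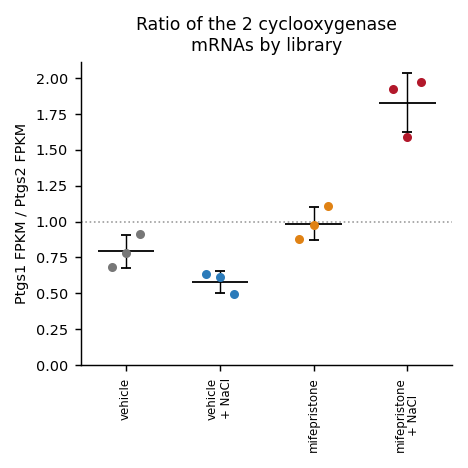
Ratio of Ptgs1 to Ptgs2 FPKM (no unit, axis from 0) in each library by group, with mean bars and SD whiskers (n = 3); the dotted line marks equal levels. The 3 libraries with both treatments lay between 1.59 and 1.97, and those of vehicle with NaCl between 0.494 and 0.634.

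Markers of platelets, which use cyclooxygenase-1 and 12-lipoxygenase, were examined beside these results. Of 5 listed platelet markers, 2 were expressed (Itga2b and Ppbp), and none was at 0 in all libraries. The summed level of the list was 6.19 to 7.17 FPKM in vehicle libraries, 8.84 to 11.2 with NaCl, 3.90 to 4.19 with mifepristone, and 97.8 to 101.2 with both. Ppbp, a CXC chemokine gene, made up most of the last range, at 95.5 to 99.1 FPKM. Pf4, a defining platelet gene, was low but also highest in that group, with 4, 7, 2 and 43 reads per group and at most 0.471 FPKM. Itga2b averaged 1.98, 1.80, 1.58 and 1.58 FPKM and Gp1bb 0.121, 0.121, 0.0483 and 0.112 FPKM, neither highest with both treatments. Gp9 held 2, 10, 3 and 12 reads. The part of these genes in the Ptgs1 result was not tested.

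Ptges2 encodes a membrane-associated prostaglandin E synthase (chromosome 2, 32395896 to 32405772, plus strand). Vehicle libraries held 4.63, 4.23 and 4.47 FPKM and mifepristone libraries 4.37, 4.33 and 4.89 FPKM. With NaCl the levels were 3.32, 3.13 and 3.20 FPKM in vehicle cells and 2.97, 2.93 and 2.84 FPKM in mifepristone cells. All 6 NaCl libraries were below all 6 without it, which is the opposite direction to Ptgs1 and Ptgs2. NaCl lowered the group mean 1.38-fold in vehicle cells (log2 difference -0.41, SE 0.05, limma adjusted p = 4.86e-05) and 1.56-fold in mifepristone cells (-0.56, adjusted p = 3.35e-06). Neither mifepristone difference passed: it was 0.02 without NaCl (95% interval -0.09 to 0.14, adjusted p = 0.714) and -0.12 with NaCl (-0.24 to -0.01, adjusted p = 0.061). The second passed when mifepristone library C, which enters through the shared spread, was left out (-0.12, adjusted p = 0.0214). The interaction was -0.15 (95% interval -0.31 to 0.01, adjusted p = 0.151) and did not pass, though it did in limma with library quality weights (-0.17, adjusted p = 0.0332).

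Ptges is the gene of the inducible microsomal prostaglandin E synthase (chromosome 2, 30889471 to 30929863, minus strand). It was low, below 1 FPKM in every library, and did not enter the test above. It held 15, 26 and 19 reads in vehicle libraries, 18, 15 and 18 with NaCl, 37, 42 and 37 with mifepristone, and 30, 23 and 33 with both. Mean levels were 0.112, 0.0948, 0.208 and 0.158 FPKM, far below Ptges2. In the vehicle groups, reads overlapped with and without NaCl, whereas without NaCl all mifepristone libraries lay above all vehicle libraries. Scaled for depth, mifepristone libraries held 1.85 times the reads of vehicle libraries without NaCl (95% exact counting interval 1.34 to 2.57) and 1.72 times with NaCl (1.20 to 2.48). A fit with limma-voom on recovered reads of genes with at least 10 reads in at least 3 libraries, added after the data were seen, gave log2 differences of 0.90 (SE 0.20, adjusted p = 0.00203) and 0.76 (adjusted p = 0.0103). Its NaCl differences were -0.24 in vehicle cells (95% interval -0.76 to 0.27) and -0.39 in mifepristone cells (-0.79 to 0.02), and neither passed. Counting intervals cover counting error only.

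Hpgd, the gene of 15-hydroxyprostaglandin dehydrogenase, which starts the breakdown of prostaglandins (chromosome 8, 56294585 to 56321043, plus strand), was listed at 0 in all 12 libraries. A count of 0 allows up to 3 reads, which equals 0.0609 to 0.0715 counts per 1e+06 reads, depending on the library. No difference between groups could be detected at this depth.

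Ptger4 encodes EP4, a prostaglandin E2 receptor that raises cyclic AMP (chromosome 15, 5206661 to 5244187, minus strand). Its levels were 6.26, 6.16 and 6.30 FPKM in vehicle libraries, and 3.91, 3.94 and 3.82 FPKM with NaCl. They were 1.58, 1.499 and 1.44 FPKM with mifepristone, and 1.56, 1.41 and 1.45 FPKM with both. The vehicle groups were apart from each other and from the mifepristone groups, which overlapped each other. Mifepristone lowered the group mean 4.14-fold without NaCl (log2 difference -1.75, SE 0.04, limma adjusted p = 9.46e-11) and 2.64-fold with NaCl (-1.16, adjusted p = 1.77e-09). NaCl lowered it 1.60-fold in vehicle cells (-0.62, adjusted p = 5.11e-07). In mifepristone cells the NaCl difference was -0.02 (95% interval -0.12 to 0.07, adjusted p = 0.648). The interaction was 0.59 (SE 0.06, adjusted p = 4.44e-05), so the NaCl effects in vehicle and mifepristone cells differed.

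The authors' deposited table gives Ptger4 a log2 fold change of -2.04 for mutant against control, with an adjusted p-value of 1.36e-62. The same deposited tables mark a nearby ChIP peak for Ptger4 and Pla2g4a and for none of the other 7 members they list (Hpgd is not in them). They mark 17.8% of their 32627 genes, and 28.4% of the 14044 genes tested here. The tables give no peak positions, so the marks cannot be set against the upstream bases printed above.

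Of the 50-base words in Ptger4 transcripts, 14.4% occur on the opposite strand in Ttc33 or Gm15937, which overlap its longest model. Ttc33 averaged 16.7, 17.6, 15.4 and 16.1 FPKM in the groups in the order above, a far narrower range than that of Ptger4. Whether reads of either overlapping gene were counted for Ptger4 was not tested, and the level of Gm15937 was not examined. Leukocytes also express EP4, so leukocyte markers were examined. Among 9 such markers with values, 3 were expressed (Cd68, Csf1r and Cd14), and the list summed to 36.7 to 37.7 FPKM in vehicle libraries, 48.6 to 52.0 with NaCl, 13.3 to 13.7 with mifepristone, and 16.1 to 17.3 with both. The 3 expressed markers did not move together. Csf1r, a macrophage receptor gene, averaged 25.4, 18.1, 6.28 and 6.11 FPKM in the groups in the order above. Cd14 averaged 8.51, 29.2, 3.11 and 4.75 FPKM, and Cd68 3.11, 2.84, 4.04 and 5.36 FPKM. Their part in the Ptger4 result was not tested. The defining markers Ptprc and Adgre1 stayed at or below 0.305 and 0.0308 FPKM, and Tyrobp was at 0 in every library.

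**Figure D3:**
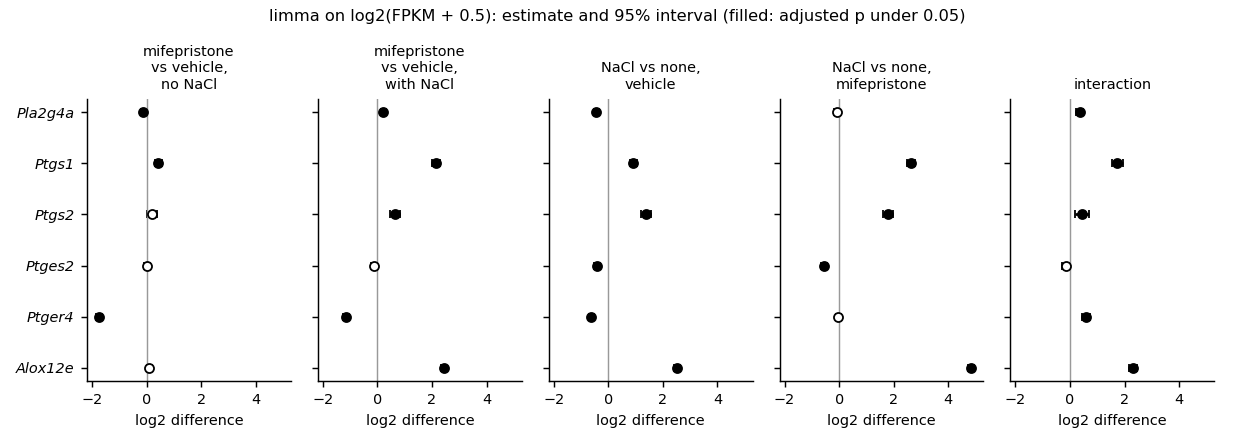
Log2 differences from limma on log2(FPKM + 0.5) with 95% intervals for the 6 tested members in each comparison; filled points have an adjusted p under 0.05. Ptger4 was the lowest point in both mifepristone comparisons (-1.75 and -1.16), and the interaction was above 0 for 5 members and -0.15 for Ptges2.

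Alox12e encodes the epidermal-type 12-lipoxygenase of mice (chromosome 11, 70315610 to 70322628, minus strand). It had the widest range of the members. Vehicle libraries held 0, 1 and 0 reads, and vehicle libraries with NaCl held 302, 293 and 331 reads. Mifepristone libraries held 4, 5 and 7 reads, and libraries with both treatments held 1991, 1742 and 2126 reads. In FPKM the NaCl groups averaged 2.39 ± 0.0869 (SD, n = 3) in vehicle cells and 15.02 ± 0.355 in mifepristone cells. No 50-base word of its transcripts occurs in any other gene's transcripts, those of Alox12 and Alox15 included.

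All 6 NaCl libraries were far above the 6 without NaCl, and no group overlapped another. On the main scale the NaCl log2 differences were 2.52 in vehicle cells (SE 0.05) and 4.85 in mifepristone cells. Alox12e entered the test only through the NaCl libraries, where it was high, so no p-value is given for them. The ratio of reads, scaled for depth, was 896 in vehicle cells (95% exact counting interval 160 to 35430, resting on 1 vehicle read) and 377 in mifepristone cells (232 to 660). With NaCl present, mifepristone raised Alox12e 6.28-fold in group means (log2 difference 2.42, limma adjusted p = 1.46e-11). Without NaCl its difference was 0.10 on the main scale (95% interval -0.0027 to 0.21, adjusted p = 0.0854), and the read ratio was 15.3 (2.38 to 641.5). The added voom fit on reads gave 2.92 for that comparison (SE 0.49, adjusted p = 0.000182).

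The interaction of Alox12e depended on the scale. On log2(FPKM + 0.5) it was 2.32 (adjusted p = 1.41e-08), and on recovered reads with voom it was -0.24 (95% interval -1.30 to 0.82, adjusted p = 0.746). The authors' deposited table gives -1.19 with an adjusted p-value of 1. Adjusted p-values below 1 begin there at an absolute log2 interaction of 1.21, so that p-value cannot decide the question. Whether the fold response to NaCl differed between vehicle and mifepristone cells could therefore not be settled at 1 and 16 reads in the groups without NaCl.

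Alox12, the platelet-type 12-lipoxygenase gene (chromosome 11, 70241457 to 70255353, minus strand), held 4, 4 and 7 reads in vehicle libraries, 8, 4 and 4 with NaCl, 5, 5 and 4 with mifepristone, and 14, 13 and 14 with both. The last group was above all others, at a mean of only 0.0730 FPKM. Scaled for depth, reads with both treatments were 2.61 times those of vehicle with NaCl (95% exact counting interval 1.43 to 4.98) and 3.02 times those of mifepristone alone (1.61 to 5.99). Alox12 reached the 10 reads of the added voom fit only in the libraries with both treatments, so no test is given for it. Of the platelet markers, Ppbp and Pf4 were also highest in that group and Itga2b was not (values above), and their part in this difference was not tested. Alox15, which encodes a 12/15-lipoxygenase (chromosome 11, 70344152 to 70352031, minus strand), held 0, 0 and 0 reads in vehicle libraries, 3, 0 and 1 with NaCl, 3, 0 and 2 with mifepristone, and 4, 4 and 3 with both. Every counting interval of its read ratios included 1, so no difference was detectable at this depth.

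**Figure D4:**
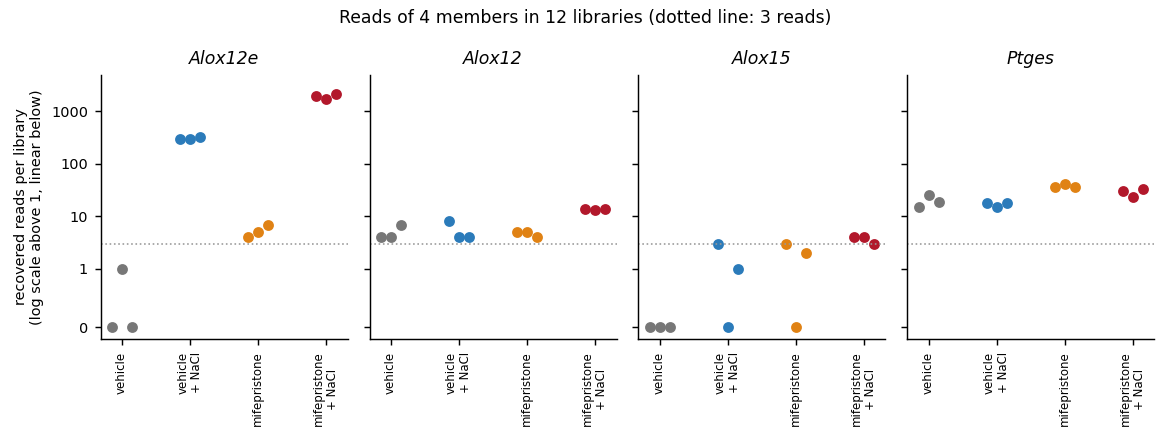
Recovered reads per library (log axis above 1, linear below) of 4 members with low counts in at least 1 group; points are libraries and the dotted line marks 3 reads. Alox12e went from 0 or 1 read in vehicle libraries to between 1742 and 2126 with both treatments, whereas Alox12 and Alox15 never passed 14 and 4 reads.

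Across the members, the main fit called the interaction higher for 5 tested genes and lower for none, beside 13.6% higher and 17.5% lower among all genes. The median interaction was 0.51 over the tested members and -0.01 over all genes. The number of all genes called for the interaction, 4374, rose to 6739 without mifepristone library C, and the number of members called stayed at 5. With voom on recovered reads of the same genes, 4 members were called for the interaction (Pla2g4a, Ptgs1, Ptgs2 and Ptger4).

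The rest of the prostaglandin pathway was expressed unevenly. Of 18 other phospholipase A2 genes, 6 were tested. NaCl raised 2 and lowered 3 of them in vehicle cells (median log2 difference -0.21), and raised 3 and lowered 3 in mifepristone cells (0.09). Mifepristone raised 1 and lowered 4 without NaCl (median -0.24), and raised 1 and lowered 1 with NaCl (0.04). The shares and medians over all genes tested, given above, apply to each of these lists. Pla2g7, the gene of a secreted enzyme that degrades platelet-activating factor, averaged 15.9 ± 0.831 FPKM in vehicle libraries (SD, n = 3), 7.99 ± 0.442 with NaCl, 33.0 ± 3.47 with mifepristone, and 10.1 ± 0.400 with both. Mifepristone thus raised it 2.08-fold without NaCl (log2 difference 1.03, limma adjusted p = 2.87e-07), and NaCl lowered it 3.27-fold in mifepristone cells (-1.66, adjusted p = 6.84e-09). Pla2g6, the calcium-independent enzyme, rose with NaCl in vehicle cells (0.57, adjusted p = 5.96e-06) and in mifepristone cells (0.81, adjusted p = 2.78e-07). Pla2g16, an adipose-type phospholipase gene, was called lower with NaCl, from 2.03 to 0.577 FPKM in vehicle cells and from 1.56 to 0.588 FPKM in mifepristone cells. Pla2g16 reached 1 FPKM only in libraries without NaCl, and Pla2g4c, which is in these counts, only in libraries with it, so both passed the filter only through the groups where they were high.

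Of 9 other prostanoid synthase and reductase genes in the table, 4 were tested, and 2 were higher and 1 lower in each of the 4 comparisons. Their median log2 difference was 0.39 for mifepristone without NaCl, 0.19 with it, 0.38 for NaCl in vehicle cells and 0.21 in mifepristone cells. Ptgds, the lipocalin-type prostaglandin D synthase gene, rose 3.89-fold with mifepristone, from 8.34 ± 0.608 to 32.5 ± 3.02 FPKM (SD, n = 3, log2 difference 1.90, limma adjusted p = 4.98e-09). It rose 1.90-fold with NaCl in vehicle cells, to 15.9 ± 0.803 FPKM, and its mean was 43.8 ± 3.69 FPKM with both. Akr1b3, an aldose reductase that can also make prostaglandin F2 alpha, averaged 25.6 FPKM in vehicle libraries and 839.9 with NaCl. It averaged 41.4 FPKM with mifepristone and 1139 with both treatments, the highest level of the genes named here. Its interaction was not called (-0.24, limma adjusted p = 0.145). Cbr1, a carbonyl reductase that converts prostaglandin E2 to F2 alpha, fell 1.75-fold with mifepristone without NaCl, from 44.4 ± 1.80 to 25.4 ± 2.43 FPKM (-0.80, adjusted p = 2.45e-06). Prostacyclin synthase (Ptgis) and thromboxane synthase (Tbxas1) stayed at or below 0.0278 and 0.0614 FPKM in every library. Ptges3, another prostaglandin E synthase gene, was added after its values were seen. It averaged 91.9, 83.8, 98.2 and 80.1 FPKM in the groups in the order above, higher than Ptges and Ptges2 in every group.

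Of 8 other prostanoid receptor genes only Ptger1, the gene of the calcium-coupled EP1 receptor, was tested. It averaged 6.76 ± 0.585 FPKM in vehicle libraries (SD, n = 3), 6.40 ± 0.113 with NaCl, 5.69 ± 0.301 with mifepristone, and 4.19 ± 0.344 with both. Mifepristone lowered it with NaCl present (log2 difference -0.56, limma adjusted p = 2.78e-05) and, by less, without NaCl (-0.23, also called). NaCl lowered it in mifepristone cells (-0.40, adjusted p = 0.000379), and its difference in vehicle cells was not called (-0.07, adjusted p = 0.388). Ptger2 and Ptger3, the genes of the EP2 and EP3 receptors, stayed at or below 0.00646 and 0.0298 FPKM. Ptger4 and Ptger1 were therefore the prostaglandin E2 receptor genes with levels above 1 FPKM, and in vehicle libraries their means were within 1 FPKM of each other.

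All 5 genes of prostaglandin transport and breakdown on the list were tested, and NaCl raised 3 and lowered 1 of them in vehicle cells (median log2 difference 0.50) and raised 2 in mifepristone cells (0.13). Mifepristone raised 2 and lowered 2 without NaCl (median 0.10), and raised 1 and lowered 1 with NaCl (-0.13). Abcc4, which exports prostaglandins from cells, rose with NaCl from 12.04 ± 0.651 to 32.2 ± 1.23 FPKM in vehicle cells (SD, n = 3, log2 difference 1.38, limma adjusted p = 1.09e-07). In mifepristone cells it rose from 7.63 ± 0.845 to 25.7 ± 2.21 FPKM (1.69, adjusted p = 1.63e-08). Slco2a1, the prostaglandin uptake transporter gene, rose with NaCl 2.81-fold in vehicle cells (1.41, adjusted p = 4.51e-08) and 1.60-fold in mifepristone cells (0.65, adjusted p = 1.88e-05). The Slco2a1 interaction was -0.76 (SE 0.10, adjusted p = 0.000317), so its NaCl effects differed, in the opposite direction to that of Ptgs1. Ptgr1, a reductase of prostaglandin and leukotriene metabolites, was called higher with mifepristone without NaCl, from 0.216 ± 0.0919 to 1.25 ± 0.142 FPKM. It reached 1 FPKM only in the 6 mifepristone libraries, so it entered the test only through the groups where it was high.

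**Figure D5:**
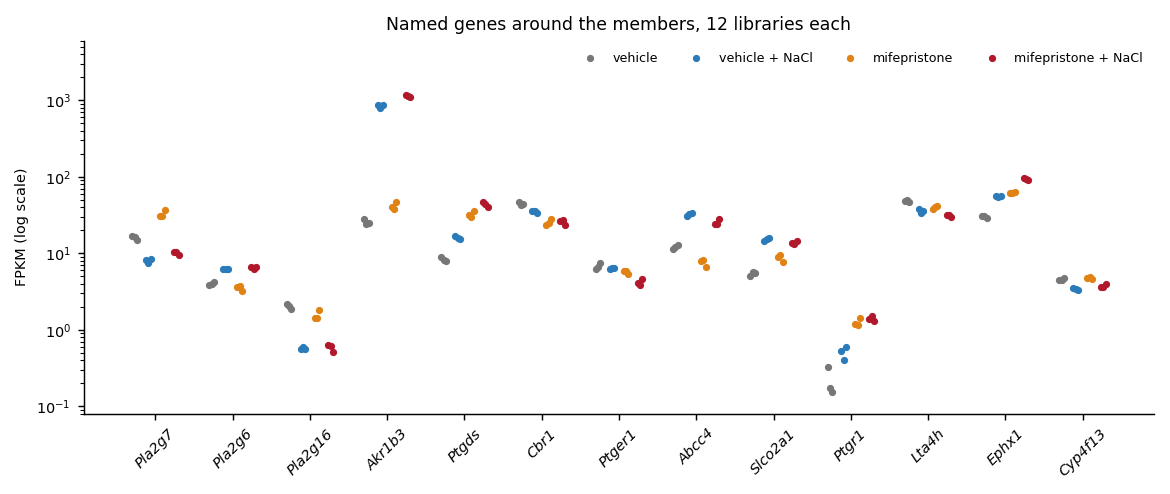
FPKM (log axis) of the 13 named pathway genes in the 12 libraries, coloured by group; each point is a library. Akr1b3 spans the widest range, and Abcc4 and Slco2a1 are higher in NaCl libraries than in those without NaCl.

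Of 11 other lipoxygenase and leukotriene genes only Lta4h was tested. Lta4h, the leukotriene A4 hydrolase gene, fell with NaCl in vehicle cells from 48.3 ± 1.20 to 35.7 ± 1.67 FPKM (SD, n = 3, log2 difference -0.43, limma adjusted p = 1.93e-05). The 5-lipoxygenase gene Alox5 stayed at or below 0.0232 FPKM in every library, so the hydrolase was expressed where the enzyme that supplies leukotriene A4 was near 0. Alox12b, an epidermal lipoxygenase gene chosen after its values were seen, averaged 0.00316 FPKM in vehicle libraries, 0.183 with NaCl, 0.0229 with mifepristone, and 0.728 with both, in the same order of groups as Alox12e. Of 14 epoxygenase and epoxide hydrolase genes, 2 were tested. Ephx1, the microsomal epoxide hydrolase gene, rose 2.06-fold with mifepristone without NaCl, from 30.1 ± 1.16 to 62.0 ± 1.57 FPKM (1.03, adjusted p = 2.73e-09). It was also called higher with NaCl, at 55.4 FPKM in vehicle cells and 93.8 FPKM in mifepristone cells. Cyp4f13, a fatty acid hydroxylase gene, fell with NaCl in vehicle cells (-0.36, adjusted p = 4.41e-05) and in mifepristone cells (-0.33, adjusted p = 8.18e-05).

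The genes whose log2 levels over the 12 libraries were most like each tested member were found by Pearson correlation. The libraries fall into 4 groups, so a correlation mostly reflects group means and is given as a description. Ptgs1 was most like Sec16b (0.997), Oas1c (0.993) and Clca2 (0.993). Sec16b averaged 0.0402, 0.388, 0.236 and 2.47 FPKM in the groups in the order above, and Clca2 0.0092, 0.221, 0.0527 and 2.11 FPKM. Both thus averaged above 1 FPKM only with both treatments. Ptgs2 was most like Mctp2 (0.996), Hif1a (0.994), the hypoxia factor gene, and Hsph1 (0.993), a heat shock protein gene. Hif1a averaged 34.1, 174.9, 48.4 and 354.8 FPKM in the groups in the order above, and Hsph1 19.5, 79.7, 23.5 and 177.3 FPKM. Ptger4 was most like Bmp3 (0.995), Tinag (0.995) and Snhg18 (0.994), and all 3 averaged less in both mifepristone groups than in either vehicle group. Alox12e was most like Esrrb (0.9995), the gene of an orphan nuclear receptor, which averaged 0.0013, 0.773, 0.0165 and 2.89 FPKM, then Ppt1 (0.999) and Fam117a (0.997). Ptges2 was most like H2afy (0.995), Ubald2 (0.992) and Phgdh (0.991), a serine synthesis gene. Pla2g4a was most like Sh3d21 (0.983), Agt (0.972), the angiotensinogen gene, and Fbxl4 (0.972).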

How the data were processed

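Per the labels' protocols, poly(A) RNA libraries were made with a TruSeq kit from 12 samples of the IMCD3 subclone. Per the submitters' processing notes, the authors worked on GRCm38 (mm10) with STAR 2.4.2a, DESeq2 1.12.3, Trimmomatic 0.32 and SAMtools 1.0, with no role or order given. Not given in the sources used here are the counter, annotation and strand setting. The authors deposited FPKM values per library. Their deposited comparison tables hold a mean normalized count signal per gene, log2 fold changes, adjusted p-values and a peak mark. In those tables adjusted p-values below 1 begin at an absolute log2 value of 1.07 (mutant) and 1.21 (interaction), so they may test a minimum fold. Control columns matched the titles by name. Columns named for the mutant were taken as the mifepristone samples, from the NaCl part, the letter and knowledge of the study, and 0 columns were left without a sample.

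Whole reads were recovered from FPKM times the authors' mean signal over the mean FPKM, for 100.0% of values within 0.05 of a whole read. The main test was limma 3.58.1 in R 4.3.3 (trend, robust) on log2(FPKM + 0.5), with 4 group means over 12 libraries and 8 residual degrees of freedom. Genes with at least 1 FPKM in at least 3 libraries were tested. The fit was tested on simulated data. Alternatives were other pseudocounts, filters, scalings and weights, voom on reads, a replicate block and leaving libraries out. Pathway genes were named as the up to 3 per list with the smallest adjusted p in any of the 4 simple comparisons, and the 3 most similar genes per tested member left out members, symbols starting with Gm and a digit, and those ending in Rik. The members and lists were chosen with earlier results of these data known. Coordinates are from GENCODE M21. The check of the mutated factor's own gene is not reported here.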

Additional observations from a re-analysis of the deposited data

Results flagged for a closer look

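The effect of mifepristone differed between cells with and without NaCl, by the interaction term in limma, for 5 members. The log2 difference between the effects was 0.35 for Pla2g4a, 1.73 for Ptgs1, 0.43 for Ptgs2, 0.59 for Ptger4 and 2.32 for Alox12e. For Alox12e it was 2.32 on log2(FPKM + 0.5) only and did not pass on recovered reads.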

How the results depend on the processing

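For the tested members there were 30 results and 24 alternative settings, which gave 714 values. Of these, 697 kept their side of the threshold, 15 became called and 2 reversed a called difference. Under every setting run, 24 results kept their side. Both reversals of a called difference were the Alox12e interaction, -0.24 with voom on recovered reads at either filter (the vehicle group holds 1 read). Sign changes between values that were not called count among the 697. The NaCl difference of Ptger4 in mifepristone cells, for example, ranged from -0.084 to 0.01. The number of members called for mifepristone without NaCl, 3 in the main fit, was 5 with a pseudocount of 0.1, 4 with voom on the same genes, and 5 with the added voom fit, where Alox12e and Ptges were the further calls. The number of genes called for the interaction was 7156 with library quality weights, and ranged from 3437 to 6739 when 1 library was left out. The cause was not tested. Same-letter libraries did not deviate together (correlations -0.50 to 0.29), and libraries of different letters ranged from -0.44 to 0.61. With 3 libraries per group, these values cannot show whether the letters pair the samples. With the replicate block, 3, 5, 6, 4 and 5 members were called in the 5 comparisons, the same counts as without it. Of 1547 values for the named pathway genes, 1494 kept their side of the threshold, 28 became called and 25 lost the call. Of 714 counts over the pathway lists, 66 moved by more than 1.5 times. None of the lost calls concerned a difference given with its p in the text above. Depth limits Hpgd, Alox15, Alox12 and Ptges, and the groups of Alox12e without NaCl.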
